A study of Homo sapiens with 9 samples.

Results

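The change described here took place in U937 cells between 1 and 3 h after a short heating to 42 °C. U937 is an established human lymphoma line that grows in suspension and resembles monocytes. The array labelled 42 °C with 3 h of recovery was set against the array labelled 42 °C with 1 h of recovery, and both cultures had been heated for 15 min and returned to 37 °C. These are 2 of the 9 arrays of a study of heat-induced apoptosis, chosen by their labels alone. The other arrays used below are 42 °C at 0 and 6 h, 44 °C for the same 15 min at 0, 1, 3 and 6 h, and unheated control cells at 37 °C, with 1 array per condition. The control carries no time in its label, so a change against it and the time spent in culture cannot be told apart. Nothing in the labels says whether the arrays came from separate cultures. Labelled RNA was hybridised to Affymetrix Human Genome U133 Plus 2.0 arrays, whose short probes lie near the 3′ ends of transcripts.

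Heat unfolds proteins and activates heat shock factor 1, which binds heat shock elements in promoters and drives transcription of chaperones. Transcription of many other genes is held back during heat, so transcripts with short lives drop and return once it resumes. Unfolded proteins inside the endoplasmic reticulum activate a separate response, through IRE1, PERK and ATF6, which raises chaperones of that compartment.

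The promoters of 5 genes that the results turn on are shown first, because they differ in whether they hold the sequences those responses are known to use. Each runs 5′ to 3′ on the strand of its gene, from 250 bases before the RefSeq start to 50 after it (build GRCh38.p14), in lower case with motif matches in capitals. ZFAND2A lies at chr7:1160147-1160446 on the minus strand, DNAJB9 at chr7:108569624-108569923 on the plus strand and KLHL25 at chr15:85794876-85795175 on the minus strand. HSPA6 lies at chr1:161524290-161524589 on the plus strand and HSPA5 at chr9:125241294-125241593 on the minus strand.
ZFAND2A: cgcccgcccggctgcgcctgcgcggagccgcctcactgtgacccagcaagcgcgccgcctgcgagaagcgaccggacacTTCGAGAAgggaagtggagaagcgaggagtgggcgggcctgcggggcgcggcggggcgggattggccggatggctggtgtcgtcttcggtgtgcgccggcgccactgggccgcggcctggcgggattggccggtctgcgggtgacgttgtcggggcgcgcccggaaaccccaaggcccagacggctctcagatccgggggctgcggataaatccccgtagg
DNAJB9: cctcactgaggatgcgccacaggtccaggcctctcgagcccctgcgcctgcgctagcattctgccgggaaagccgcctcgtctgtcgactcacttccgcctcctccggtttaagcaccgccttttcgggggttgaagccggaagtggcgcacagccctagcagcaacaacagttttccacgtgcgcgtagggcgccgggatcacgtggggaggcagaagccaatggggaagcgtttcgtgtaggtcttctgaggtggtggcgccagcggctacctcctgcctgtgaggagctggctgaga
KLHL25: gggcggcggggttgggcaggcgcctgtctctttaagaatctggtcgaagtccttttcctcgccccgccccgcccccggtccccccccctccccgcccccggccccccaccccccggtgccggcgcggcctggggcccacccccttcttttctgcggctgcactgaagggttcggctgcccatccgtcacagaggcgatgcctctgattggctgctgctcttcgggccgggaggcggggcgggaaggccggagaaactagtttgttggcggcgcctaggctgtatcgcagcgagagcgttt
HSPA6: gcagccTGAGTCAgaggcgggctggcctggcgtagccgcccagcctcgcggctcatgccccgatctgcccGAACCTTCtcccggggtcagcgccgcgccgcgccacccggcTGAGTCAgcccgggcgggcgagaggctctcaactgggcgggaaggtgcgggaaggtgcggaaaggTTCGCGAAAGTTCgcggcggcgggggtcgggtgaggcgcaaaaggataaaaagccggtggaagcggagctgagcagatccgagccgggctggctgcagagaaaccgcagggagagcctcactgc
HSPA5: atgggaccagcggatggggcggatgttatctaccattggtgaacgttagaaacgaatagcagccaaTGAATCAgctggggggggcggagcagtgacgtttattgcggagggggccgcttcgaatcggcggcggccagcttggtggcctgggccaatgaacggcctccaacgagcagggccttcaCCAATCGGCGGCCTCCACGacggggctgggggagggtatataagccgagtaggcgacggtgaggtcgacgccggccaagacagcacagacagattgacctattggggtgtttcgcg
The motifs were searched on both strands: the heat shock element as 2 inverted units (GAANNTTC or TTCNNGAA) and as a run of 3 units, the ER stress element, the CRE (TGACGTCA), the core of the ATF4 composite element (TGATGNAA) and the AP-1 motif (TGANTCA). The capitals in ZFAND2A mark a heat shock element of 2 units that begins 171 bases upstream of the start. HSPA6 holds such elements at 180, 74 and 69 bases upstream, of which those at 74 and 69 overlap and form a run of 3 units, and AP-1 motifs at 244 and 139. HSPA5 holds an ER stress element at 66 bases upstream and an AP-1 motif at 184. In the windows of DNAJB9 and KLHL25 none of these letters was found, which says nothing of elements elsewhere. Those of the chaperone genes DNAJB1, HSPH1, BAG3, DNAJA4 and HSP90AA1 held 0 heat shock elements as well, while those of HSPB1 and IER5 held 1 of 2 units. As 11.6% of all measured genes held an element of 2 units, a single match does not mark a gene as driven by heat shock factor 1.

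Each array was scaled to a trimmed mean of 100, signals under 12.5, the median over all arrays, were set to that floor, and each of 19775 genes was read through its brightest probe set. A gene is said to have risen or fallen where its signal at 3 h differed by 2-fold or more from that at 1 h. Where 1 of both signals lay at the floor, the fold is a lower bound. With 1 array a side the difference has no replicate check, so no test was run and every value describes these arrays. As a spread, the robust SD of the log2 difference was taken for another pair of arrays, 44 °C at 0 h and the control. This SD holds any early heat response as well and does not measure the spread of the 3 h and 1 h pair. It was 0.49 for genes with a median signal of 41.1 and 0.22 in the brightest of 10 bins (median 1242).

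Before scaling, the trimmed means were 101 at 3 h and 140 at 1 h, within a range of 101 to 211 over the 9 arrays. The ratio of 3′ to 5′ signal, a sign of RNA integrity, was 1.36 at 3 h and 1.32 at 1 h for ACTB, and 1.07 at both times for GAPDH. Of 18 measured myeloid markers 15 were above the floor on all arrays, with a summed signal of 17294 at 3 h and 17992 at 1 h. Above the floor on all arrays were 0 of 8 T cell markers, 2 of 7 B cell markers, 0 of 10 epithelial and fibroblast markers and 2 of 5 erythroid markers. Their summed signals were 63.6, 131, 187 and 75.2 at 3 h, against 45.8, 171, 202 and 138 at 1 h. In these 4 lists HBB alone passed 2-fold and lay under the floor at 3 h, against a signal of 28.9 at 1 h.

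Between 1 and 3 h, 135 genes rose (0.683% of all genes) and 311 fell (1.57%). The larger side turned with quantile normalisation, under which 230 rose (1.16%) and 190 fell (0.961%), and with a signal-dependent normalisation of the pair, under which 210 rose (1.06%) and 194 fell (0.981%). Of the 135 genes that rose, 134 also rose after quantile normalisation, while of the 311 that fell 190 also fell. By the same scaling 413 genes rose (2.09%) and 84 fell (0.425%) between 0 and 1 h, and 468 rose (2.37%) and 238 fell (1.2%) between 3 and 6 h. Each of these neighbouring steps shares an array with the step of 1 to 3 h.

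Most of the calls were dim. The brighter of both signals was under 50 for 84 genes that rose and 186 that fell, and at least 100 for 34 that rose and 46 that fell. On 1 of the arrays 50 of the rises and 115 of the falls lay at the floor. Where a called gene had other probe sets off the floor, their median had the same sign for 30 of 38 rises and 66 of 82 falls, and passed 2-fold for 8 and 9. Differences moved with brightness: the median log2 difference was 0.11 in the brightest bin and -0.14 near a signal of 41.1, against -0.01 and 0.06 with quantile normalisation. Values under quantile normalisation therefore stand beside small rises of bright genes below.

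**Figure D1:**
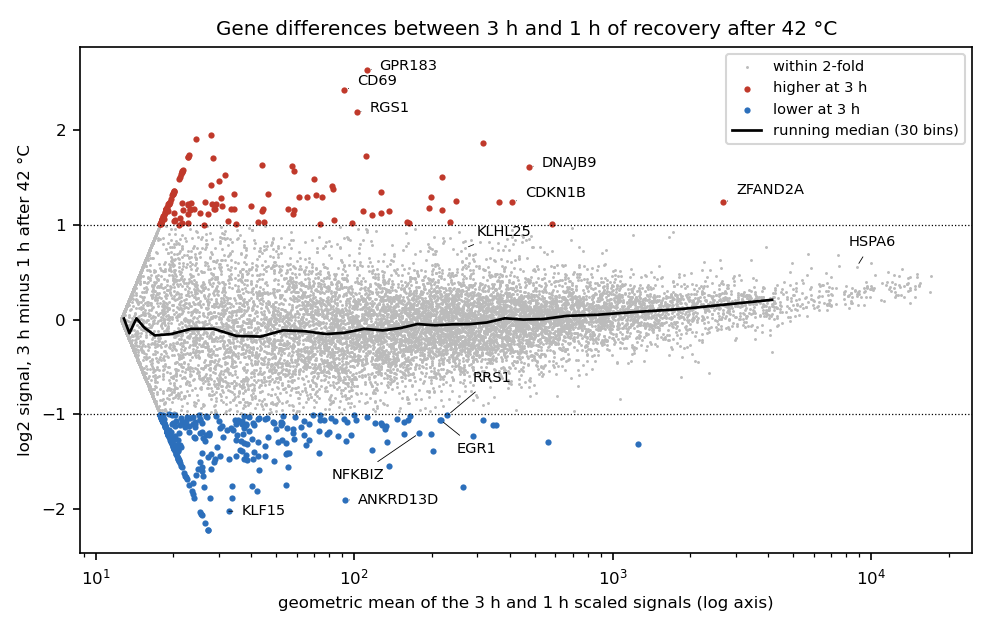
Each point is a gene off the floor on the 3 h or the 1 h array; the x axis is the geometric mean of both scaled signals (log axis), the y axis the log2 difference of 3 h minus 1 h after 42 °C, and dotted lines mark 2-fold. The 135 genes higher and 311 lower at 3 h gather at low signals, the diagonal edges are genes at the floor on 1 array, and the running median over 30 bins climbs with signal.

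Among the rises were genes that already stood above the control at 1 h. ZFAND2A, which links the proteasome to the removal of proteins damaged by heat or arsenite, led them in signal, with 185 in control cells and 891, 1743, 4122 and 3111 at 0, 1, 3 and 6 h. Its signal peaked at 3 h, 2.36-fold above that at 1 h, and the log2 difference was 1.24, or 1.02 with quantile normalisation. CSRP2, a LIM domain protein, rose 3.10-fold to 77.8 at 3 h, against 25.1 at 1 h, and had another probe set with a log2 difference of 0.61. In all 5 of the genes that rose had been 2-fold or more above the control at 1 h, where 1.9% of all genes stood. The other 3, chosen here after their values were seen, were IL7R, the receptor for interleukin 7 (134 at 3 h and 51.3 at 1 h), FAM13A (112 at 3 h and 45.0 at 1 h) and CRTAM, a lymphocyte adhesion molecule (161 at 3 h and 72.6 at 1 h). All 5 also rose 2-fold between 1 and 3 h after 44 °C.

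DNAJB9, a J-domain cochaperone of the endoplasmic reticulum that returns the sensor IRE1 to rest, rose as well. At 1 h it stood 1.52-fold above the control, short of 2-fold. Its signal was 178 in control cells and 143, 271, 831 and 428 at 0, 1, 3 and 6 h after 42 °C. The rise from 1 to 3 h was 3.07-fold, with a log2 difference of 1.62 (1.58 with quantile normalisation), and its other probe sets had 0.98 and 1.85. KLHL25, an adaptor that hands targets to the CUL3 ubiquitin ligase, had 27.3 in control cells and 61.8, 206, 347 and 120 at 0, 1, 3 and 6 h. It too was highest at 3 h, but its difference from 1 h was 1.69-fold (log2 0.75, or 0.81 with quantile normalisation) and missed 2-fold.

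The unfolded protein response of the endoplasmic reticulum counted DNAJB9 as its 1 rise among 24 measured genes, with 0 falls and a median log2 difference of 0.15, beside -0.02 for all genes off the floor on both arrays. Of the 24 genes 19 were positive, and 17 with quantile normalisation (median 0.12). Of all 12744 genes off the floor on 1 or both arrays 6042 were positive and 6702 negative, and 0.683% of all genes rose. HERPUD1, which helps export misfolded proteins for degradation, had a signal of 1165 at 3 h and 713 at 1 h (log2 difference 0.71). HSPA5, the HSP70 of this compartment, had 4274 at 3 h and 2756 at 1 h (0.63), and another probe set had 1.01. HSP90B1, the HSP90 of this compartment, had 0.55. XBP1, the transcription factor made active by IRE1, had 0.05, and its promoter window holds an ER stress element, as that of HSPA5 does.

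HSP70 and HSP110 chaperones, which fold other proteins with the use of ATP, had the highest median of the 34 lists. All 9 measured members were positive, with a median of 0.56, or 0.39 with quantile normalisation and 0.09 without scaling. Of these 9 genes 1 rose and 0 fell, where 0.683% and 1.57% of all genes did. The 1 that rose was HSPA13, an HSP70 of microsomes, with 545 in control cells and 314, 410, 827 and 875 at 0, 1, 3 and 6 h. Its 2.02-fold rise (log2 1.01) was 0.96 with quantile normalisation, and another probe set had 1.20. HSPA6, the strictly stress-induced HSP70, had 10652 at 3 h and 7245 at 1 h, a log2 difference of 0.56 or 0.21 with quantile normalisation. HSPH1, an HSP110 that exchanges the nucleotide of HSP70, had 9422 at 3 h and 5857 at 1 h (0.69, or 0.34). HSPA4L and HSPA1L had 0.87 and 0.82, and kept 0.85 and 0.87 with quantile normalisation.

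Other chaperone groups had few or no members past 2-fold, where 0.683% of all genes rose and 1.57% fell. With quantile normalisation 1.16% of all genes rose and 0.961% fell. Among 32 J-domain cochaperones 0 rose and 0 fell (median 0.01): DNAJB1, the main partner of HSP70 in the cytosol, had 0.60 (0.24 with quantile normalisation) and DNAJB2 had -0.98. Among 16 small heat shock proteins and BAG factors 0 rose and 0 fell, with 0.77 for BAG3 (0.53 with quantile normalisation), 0.56 for HSPB1 (0.24) and 0.96 for HSPB8, which had 1.18 with quantile normalisation and was then the 1 rise of the list. DNAJA4 had 0.22 by its brightest probe set and 0.36 to 1.23 by others. The 9 chaperonin genes, which form the folding chambers of cytosol and mitochondria, were all positive with a median of 0.39, which was 0.12 with quantile normalisation. Among 16 genes of HSP90 and its cochaperones 1 fell: CDC37L1 had 15.8 at 3 h and 32.2 at 1 h, or -0.86 in log2 with quantile normalisation. HSP90AA1 had 0.50 (0.13 with quantile normalisation) and HSF1 itself had -0.32.

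The 3 largest rises were of leukocyte genes that stood far below the control at 1 h. GPR183, a receptor for oxysterols that guides immune cells, had a signal of 522 in control cells and 65.5, 45.0, 280.0 and 592 at 0, 1, 3 and 6 h. Its 6.23-fold rise left it 1.86-fold below the control at 3 h. CD69, an early activation antigen of leukocytes, had 154 in control cells and 31.7, 39.4, 213 and 151 at 0, 1, 3 and 6 h, a 5.40-fold rise that ended 1.38-fold above the control. RGS1, which shortens signalling by G protein-coupled receptors, rose 4.58-fold to 219 at 3 h, against 47.9 at 1 h and 210 in control cells, and another probe set had a log2 difference of 0.75. In a bulk culture, fewer cells that hold a transcript and less of it per cell cannot be told apart.

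Further genes had the same shape. CDKN1B, the cyclin-dependent kinase inhibitor p27, had 898 in control cells and 292, 265, 629 and 910 at 0, 1, 3 and 6 h, a 2.37-fold rise between 1 and 3 h. DUSP6, a phosphatase of ERK kinases, rose 2.04-fold to 334 at 3 h, against 164 at 1 h and 391 in control cells, and other probe sets had log2 differences of 0.44 and 0.64. SIGLEC15, a lectin that binds sialic acid, rose 3.09-fold to 101 at 3 h, against 32.7 at 1 h and 76.8 in control cells. CA5B, a mitochondrial carbonic anhydrase, rose 3.88-fold to 55.1 at 3 h, against 14.2 at 1 h, while another probe set had 0.25. In all 29 of the 135 genes that rose had been 2-fold or more below the control at 1 h, where 1.53% of all genes stood. Their median log2 ratio to the control was -0.83, -1.31, -0.08 and -0.04 at 0, 1, 3 and 6 h. The control and 1 h arrays both enter this choice, and the 1 h array enters the step as well, so these ratios are a description and not independent support.

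**Figure D2:**
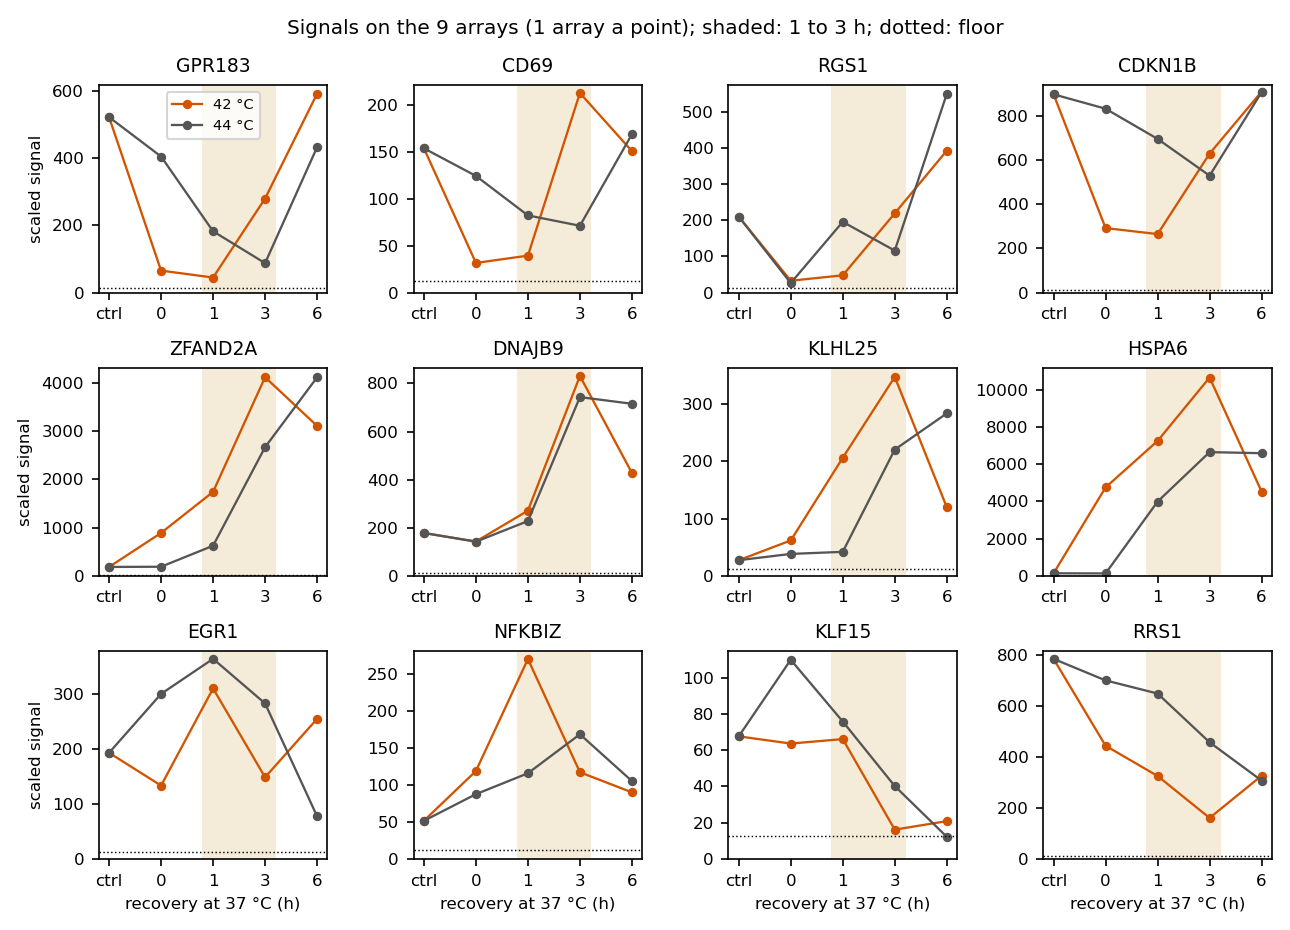
Scaled signal (y axis, from 0) of 12 genes in control cells and at 0, 1, 3 and 6 h of recovery (x axis) after 42 °C and 44 °C, 1 array a point, with the step of 1 to 3 h shaded and the floor dotted. After 42 °C the upper row was lowest at 0 or 1 h and higher by 3 h, the middle row peaked at 3 h, and the lower row held less signal at 3 h than at 1 h.

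The remaining 101 genes that rose lay within 2-fold of the control at 1 h. HBP1, a transcriptional repressor linked to cell cycle exit, had 369 at 3 h and 130 at 1 h, a 2.85-fold rise, and 102 in control cells. TPMT, which methylates thiopurine drugs, rose 3.32-fold to 203 at 3 h, against 61.2 at 1 h, and another probe set had a log2 difference of 1.40. IRAK2, a kinase of Toll-like receptor signalling, rose 2.24-fold to 326 at 3 h, against 146 at 1 h, with 0.38 by another probe set. Dimmer rises were MRC1, the mannose receptor of macrophages (51.6 at 3 h and 15.8 at 1 h), RUBCNL, a regulator of autophagy (47.3 at 3 h and 12.6 at 1 h), and MINDY3, a deubiquitinase (101 at 3 h and 34.1 at 1 h). Another probe set had a log2 difference of 0.44 for RUBCNL and 0.16 for MINDY3. Over all rises, the largest bounds were KCNH3, TTC38, PLAC1, SNX25 and NEU4, at least 2.95-fold to at least 3.33-fold. They had 37.0 to 41.8 at 3 h and less than the floor at 1 h. Of these, TTC38 and SNX25 had been at least 3.73-fold and at least 2.27-fold below the control at 1 h.

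Falls were led by dim genes. Of the 7 that passed 4-fold, KLF15, a transcription factor of metabolism, was the only one off the floor at 3 h, with 67.6 in control cells and 63.6, 66.1, 16.2 and 20.9 at 0, 1, 3 and 6 h. It fell 4.08-fold between 1 and 3 h. The largest bounds were TSPAN10, APBA2, ZFP41, NOMO3 and TRMT2A, which fell at least 4.09-fold to at least 4.69-fold. Another probe set of ZFP41, off the floor on both arrays, had a log2 difference of -0.03. ANKRD13D, which binds ubiquitin on internalised receptors, fell 3.75-fold to 47.7 at 3 h, against 179 at 1 h, although other probe sets had log2 differences of -0.83 and 0.04. FBXO31, the substrate receptor of a ubiquitin ligase, fell 3.70-fold to 17.5 at 3 h, against 64.6 at 1 h, with -0.20 by another probe set. The other large falls were TIGD5, XYLT2, SLC60A2, UTS2R, GABBR1, SLC35D2, ANKRD36, TMEM37 and GRIK5, by 2.99-fold to 3.70-fold. By other probe sets GABBR1 had a log2 difference of -0.22, ANKRD36 -0.49, and SLC60A2 -0.53 and -0.49.

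Immediate early genes switch on within minutes of a stimulus. Of 32 measured, 1 rose (DUSP6) and 3 fell, where 0.683% and 1.57% of all genes did, with a median of 0.05. EGR1, a zinc finger activator of this class, had 194 in control cells and 134, 311, 149 and 256 at 0, 1, 3 and 6 h. It fell 2.08-fold between 1 and 3 h, and other probe sets had log2 differences of -1.25 and -1.03. FOSL1, a partner of JUN, fell 2.77-fold to 22.5 at 3 h, against 62.2 at 1 h, and NR4A2, an orphan nuclear receptor, fell 2.02-fold to 18.8 at 3 h, against 38.0 at 1 h. NR4A2 had a log2 difference of -0.85 with quantile normalisation. JUN, FOS, ATF3 and KLF2 did not pass 2-fold, with -0.12, 0.48, 0.04 and 0.00.

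Among 23 inflammatory targets of NF-kB 1 rose (IRAK2) and 2 fell, where 0.683% and 1.57% of all genes did, with a median of 0.02. NFKBIZ, an inhibitor-like protein that modulates NF-kB, had 51.9 in control cells and 119, 271, 118 and 90.4 at 0, 1, 3 and 6 h, a pulse that peaked at 1 h. It fell 2.30-fold between 1 and 3 h, and another probe set had -1.27. TNF, the inflammatory cytokine, fell at least 3.70-fold and lay under the floor at 3 h, against 46.3 at 1 h. In all 85 of the 311 genes that fell had been 2-fold or more above the control at 1 h, where 1.9% of all genes stood. Their median log2 ratio to the control was 0.37, 1.22, 0.00 and 0.43 at 0, 1, 3 and 6 h. The control and 1 h arrays chose these genes, and the 1 h array enters the step as well. The count of 85 and these ratios are therefore a description and not independent support.

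A further 220 falls lay within 2-fold of the control at 1 h, and 6 had been 2-fold or more below it, as were 1.53% of all genes. RRS1, needed to build the large ribosomal subunit, was of the last kind, with 786 in control cells and 445, 326, 162 and 327 at 0, 1, 3 and 6 h. It fell 2.02-fold between 1 and 3 h (log2 -1.01, or -0.97 with quantile normalisation). This was the 1 fall among 25 genes of ribosome biogenesis, of which 0 rose (median -0.07), where 1.57% of all genes fell and 0.683% rose. At 3 h 110 of the 311 falls were 2-fold or more below the control, as were 3.08% of all genes, 193 were within 2-fold and 8 were above, as were 1.98% of all genes. The 3 h array enters both the falls and these ratios.

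Genes that were low directly after heating moved both ways in this step. On the control and 0 h arrays, neither of which enters the step, 476 genes (2.41%) were 2-fold or more below the control at 0 h. Between 1 and 3 h 16 of them rose (3.36%) and 25 fell (5.25%), against 0.683% and 1.57% of all genes. All genes include 7031 at the floor on both arrays of the step, which could not pass 2-fold. Most calls were dim, and no genes of matched signal were drawn for comparison, so these shares do not have a like base. In log2 208 of the 476 genes were positive and 262 negative, with a median log2 difference of -0.08, or 0.04 with quantile normalisation. Their median log2 ratio to the control was -1.22, -0.65, -0.73 and -0.35 at 0, 1, 3 and 6 h, and 150, 166 and 80 were still 2-fold below it at 1, 3 and 6 h. MYC, a growth-promoting transcription factor of this kind, had 3123 in control cells and 614, 564, 607 and 1200 at 0, 1, 3 and 6 h. CUL3, the scaffold of a ubiquitin ligase family, had 1323 in control cells and 393, 408, 540 and 683.

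The 184 genes (0.93%) that were 2-fold or more above the control at 0 h counted 6 that rose (3.26%) and 23 that fell (12.5%) between 1 and 3 h, against 0.683% and 1.57% of all genes. With quantile normalisation 8 of these genes rose and 20 fell, where 1.16% and 0.961% of all genes did. Their median log2 difference was -0.03, or 0.04 with quantile normalisation, and the quartiles were -0.55 and 0.36. Against the control their median was 1.23, 1.08, 0.97 and 0.79 at 0, 1, 3 and 6 h. Both sets were chosen as extreme against the control at 0 h, so their ratios at 0 h are set by that choice. The shares of all genes beside both sets include the 7031 genes at the floor on both arrays of the step. Neither set was matched for signal.

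**Figure D3:**
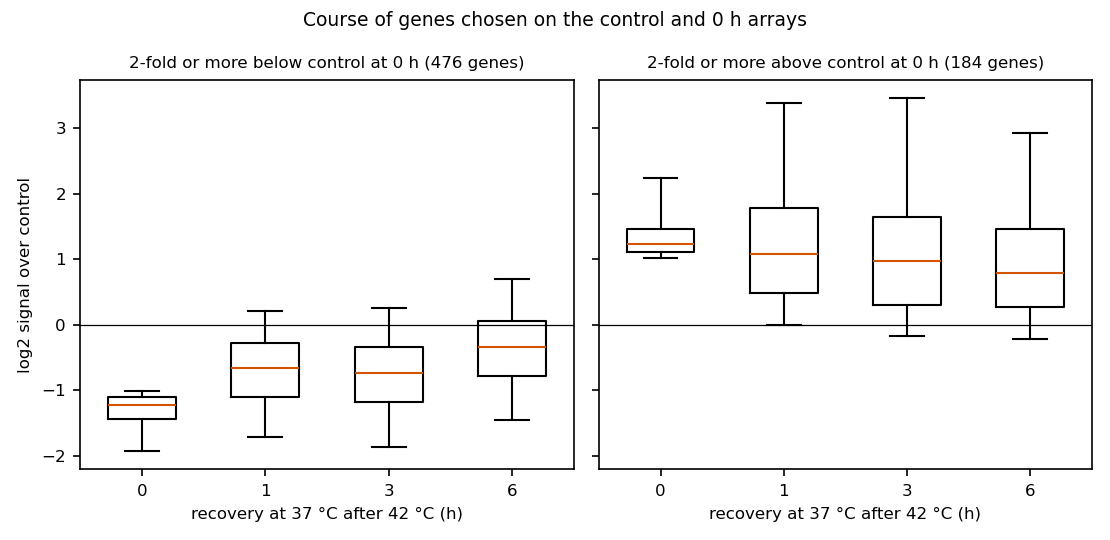
Log2 signal over the control (y axis) at 0, 1, 3 and 6 h after 42 °C (x axis) for the 476 genes 2-fold or more below the control at 0 h (left) and the 184 above it (right); boxes span the quartiles, orange lines are medians and whiskers run from the 5th to the 95th percentile over genes. Medians at 1 and 3 h were -0.65 and -0.73 on the left and 1.08 and 0.97 on the right, while between these times 16 genes on the left and 6 on the right rose 2-fold, and 25 and 23 fell.

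The step of 1 to 3 h after 44 °C shares no array with that after 42 °C. In it 100 genes rose (0.506%) and 146 fell (0.738%). Of the 135 genes that rose after 42 °C, 13 rose there as well (9.63% of these 135, and 13% of those 100), 3 fell, and the median log2 difference was 0.06. Of the 311 that fell after 42 °C, 24 fell there as well (7.72% of these 311, and 16.4% of those 146), 4 rose, and the median was -0.28. With quantile normalisation of both steps the shares were 8.70% of 230 rises and 7.37% of 190 falls. The median of -0.28 is by scaling and most of these falls were dim, so the part that scaling plays in it was not tested. The 13 shared rises were ZFAND2A, DNAJB9, CRTAM, FAM13A, IL7R, IL10RA, CSRP2, MRC1, MBNL2, SPSB1, MATCAP2, FLJ40288 and the pseudogene UBBP2.

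Stress genes differed between temperatures in both directions. ZFAND2A had a log2 difference of 1.24 after 42 °C, against 2.09 after 44 °C, where its signal was 2670 at 3 h and 625 at 1 h. KLHL25 had 0.75 after 42 °C, against 2.39 after 44 °C, where its signal was 220 at 3 h and 41.9 at 1 h. Of these 3 genes DNAJB9 differed least between temperatures, with 1.62 after 42 °C and 1.71 after 44 °C, where its signal was 743 at 3 h and 228 at 1 h. BAG3 had 0.77 after 42 °C and 1.72 after 44 °C, HMOX1, which degrades heme, 0.72 after 42 °C and 2.15 after 44 °C, and ATF3 0.04 after 42 °C and 1.61 after 44 °C. Others had the larger difference after 42 °C: HSPA13 had 1.01 after 42 °C and 0.39 after 44 °C, HSPA5 0.63 after 42 °C and 0.12 after 44 °C, HSP90AA1 0.50 after 42 °C and 0.17 after 44 °C, and DDIT3 0.48 after 42 °C and 0.22 after 44 °C. The medians of the HSP70 and HSP110, chaperonin and unfolded protein response lists were 0.56, 0.39 and 0.15 after 42 °C, against 0.43, 0.14 and 0.04 after 44 °C. With quantile normalisation these medians after 42 °C were 0.39, 0.12 and 0.12. HSPA5 and HSP90AA1 then had 0.43 and 0.13 after 42 °C, the last under its 0.17 after 44 °C. All log2 differences given after 44 °C are by scaling, so which temperature had the larger difference is uncertain for bright genes. With 1 array a condition, the difference between temperatures was not tested.

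The leukocyte genes that led the rises after 42 °C had negative differences after 44 °C. GPR183 had a log2 difference of 2.64 after 42 °C, against -1.06 after 44 °C, where its signal was 87.8 at 3 h and 183 at 1 h. In the step after 44 °C CD69 had -0.21, RGS1 -0.75 and CDKN1B -0.39, none of them past 2-fold. MYC had 0.11 after 42 °C and -1.28 after 44 °C. At 6 h after 44 °C GPR183, CD69, RGS1 and CDKN1B had signals of 433, 169, 549 and 907, all above those at 3 h after 44 °C.

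**Figure D4:**
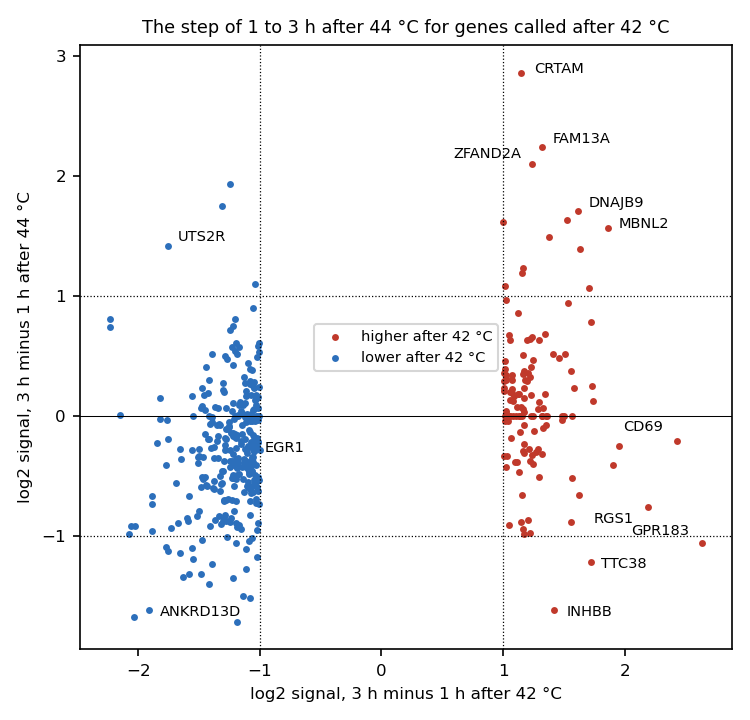
Log2 difference of 3 h minus 1 h after 42 °C (x axis) and after 44 °C (y axis) for the genes that rose (135) or fell (311) after 42 °C; dotted lines mark 2-fold and the empty middle is left by the choice of genes. Most points lie within 2-fold after 44 °C, 13 rises and 24 falls pass it the same way, and 3 rises (GPR183, INHBB and TTC38) and 4 falls, UTS2R among them, pass it the other way.

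A further pair of arrays not used in the step, 6 h and 0 h after 42 °C, differed by 2-fold upwards for 873 genes (4.41%) and downwards for 376 (1.9%). Of the 135 rises 47 were also 2-fold higher at 6 h than at 0 h (34.8%), 5 were 2-fold lower, and the median log2 difference was 0.57. Of the 311 falls 24 were also lower at 6 h (7.72%), 33 were higher, and the median was 0.00. With quantile normalisation the shares were 24.8% of the rises and 15.3% of the falls.

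Across the 34 gene lists, 23 had no member past 2-fold, with medians from -0.14 to 0.39, and 11 had 1 or more. Of all genes 0.683% rose and 1.57% fell. Among 25 proapoptotic and 13 antiapoptotic genes 0 rose and 0 fell: PMAIP1, a BH3-only protein, had 0.14, and the survival genes MCL1 and BCL2 had 0.09 and -0.34. In the list of cell cycle arrest and p53 targets 1 of 20 rose (CDKN1B) and 1 fell (PLK3, 16.6 at 3 h and 34.0 at 1 h, or -0.88 with quantile normalisation), and CDKN1A, the inhibitor p21, had 0.56. The integrated stress response counted 0 rises and 0 falls among 23 genes (median -0.06), with -0.15 for ATF4, 0.48 for DDIT3 and -0.02 for PPP1R15A.

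Among 32 KLHL and KBTBD adaptors 0 rose and 2 fell (median 0.13), KLHL22 by 2.43-fold and KLHL36 by 2.13-fold, although KLHL36 had 0.09 and 0.17 by other probe sets. With quantile normalisation 4 of these adaptors rose and 1 fell. Of all genes 0.683% rose and 1.57% fell by scaling, and 1.16% and 0.961% with quantile normalisation. Zinc finger genes, 466 in number, held 5 rises and 15 falls, where 0.683% and 1.57% of all genes rose and fell. After quantile normalisation they held 9 and 10, where 1.16% and 0.961% of all genes did, and 110 lay at the floor on all arrays. Their largest changes were falls of ZNF335, ZNF691 and ZNF577 and a rise of ZNF764, which fell or rose 2.45-fold or more, ZNF577 as a bound. Another probe set had a log2 difference of 0.19 for ZNF335 and 0.83 for ZNF764. All 51 ribosomal protein genes were positive (median 0.31), but 17 were positive with quantile normalisation (median -0.02). Likewise 12 housekeeping genes had a median of 0.24, against -0.02 with quantile normalisation, and 28 proteasome subunits 0.23 against 0.07.

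**Figure D5:**
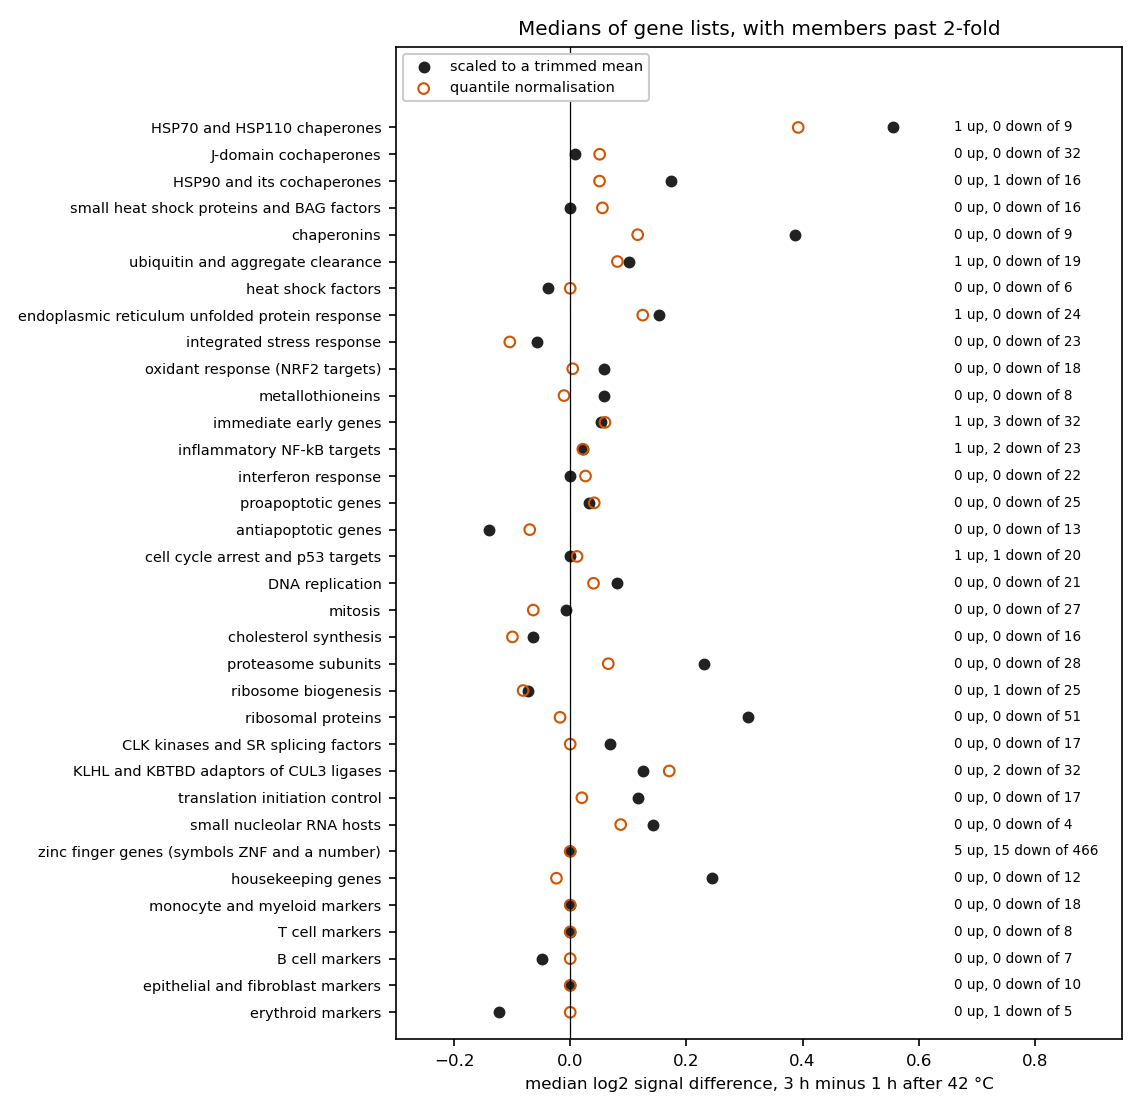
Median log2 difference of 3 h minus 1 h after 42 °C (x axis) for the 34 gene lists (y axis), scaled to a trimmed mean (filled) and after quantile normalisation (open), with the members past 2-fold at the right. The HSP70 and HSP110 list stands at 0.56 and 0.39, and lists of bright genes such as the ribosomal proteins move towards 0 with quantile normalisation.

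Promoter motifs were counted where RefSeq gave a window, for 105 of the 135 genes that rose, 225 of the 311 that fell and 15382 of all measured genes. A heat shock element of 2 units was present in 11 of 105 rises (10.5%, 95% Wilson interval 5.95 to 17.8%), in 25 of 225 falls (11.1%) and in 11.6% of all measured genes. The ER stress element was found in 0 of 105 rises, which allows up to 3.53% by the same interval, and in 0.104% of all measured genes. AP-1 motifs were found in 10.5% of rises, 6.22% of falls and 5.83% of all measured genes, the ATF4 core in 5.71%, 1.78% and 2.62%, and the CRE in 0%, 4.89% and 2.67%. The intervals for the rises were 5.95 to 17.8% for AP-1, 2.64 to 11.9% for the ATF4 core and 0 to 3.53% for the CRE. For the falls they were 3.74 to 10.2%, 0.693 to 4.48% and 2.75 to 8.54%. These intervals treat genes as independent draws, although all were called on 1 pair of arrays, so they are no test of enrichment. The run of 3 heat shock units was present in 0.952% of rises, 0.444% of falls and 0.429% of all measured genes. Over all 27305 promoters of the table the share was 13.7% for the heat shock element, 0.0806% for the ER stress element, 7.76% for AP-1, 3.67% for the ATF4 core and 1.98% for the CRE. These shares are counts of letters, not of bound sites, and were not tested.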

How the data were processed

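Gene expression was measured on 9 arrays, grouped by their labels. The deposited values are linear intensities of each probe set, which are MAS5 signals per the submitters' processing notes. The scaling target is not given in the sources used here.

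From these values each array was scaled to a 2% trimmed mean of 100 over 54613 probe sets that are not controls, with factors of 0.989 for 3 h and 0.716 for 1 h. Values were floored at 12.5 (the median), and log2 was taken. Of 54675 probe sets 41097 had 1 symbol in the platform annotation, 1801 several and 11777 none, and the last 2 kinds were not named. The brightest probe set on average stood for each of 19775 genes. No probe set stands for HSPA1A, HSPA1B or HSPA8 alone. Precision is limited by having 1 array per condition.

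Named genes were the 12 largest rises and falls off the floor that also passed 2-fold with quantile normalisation and had no other probe set of opposite sign by 0.5 or more, the 5 largest bounds each way, up to 4 members per list past 2-fold, and 31 stress and apoptosis genes whatever their values. The largest changes exclude clone names, pseudogenes, antisense transcripts, histones and immunoglobulins. The comparison, the 34 lists and these rules were chosen with earlier results of these data known. The sets from the control and 0 h arrays, the 3-unit heat shock element and the gene classes were added after seeing the data. Promoters are from RefSeq (GRCh38.p14). Python 3.11.15, pandas 2.3.3, numpy 2.4.6 and scipy 1.17.1 were used, and the steps were tested on simulated data. The alternatives tried changed the scaling, the floor, how probe sets were combined and the size of change counted.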

Additional observations from a re-analysis of the deposited data

Results flagged for a closer look

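A few genes stood out because they passed 2-fold between 1 and 3 h in opposite directions after 42 °C and 44 °C. GPR183 had a log2 difference of 2.64 after 42 °C and -1.06 after 44 °C. TTC38 had 1.72 after 42 °C, a bound since it lay under the floor at 1 h, and -1.21 after 44 °C. UTS2R had -1.76 after 42 °C and 1.42 after 44 °C, with signals of 18.3 at 3 h and 62.0 at 1 h after 42 °C, and 33.5 at 3 h and 10.1 at 1 h after 44 °C, the last under the floor, so that 1.42 is a bound. Each condition had 1 array, so the difference between temperatures was not tested.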

How the results depend on the processing

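Of 54 named calls past 2-fold, 48 stayed past it with quantile and with signal-dependent normalisation, 52 with centring on the median gene, 45 without scaling, 54 with a lower floor (25th percentile), 21 with a higher one (65th), 37 with a pseudocount of 16 and 33 with the median over probe sets, under which KLHL36 changed sign (0.087). The following counts of rises and falls moved by over 1.5 times. They were 230 and 190 with quantile normalisation, 210 and 194 with signal-dependent normalisation, 18 and 1067 without scaling, 1540 and 1657 with the lower floor, and 40 and 79 with the higher. They were 67 and 134 with the pseudocount, 85 and 196 over genes off the floor on both arrays, 77 and 167 with the median over probe sets, and 14 and 29 at 3-fold. Centring gave 145 and 292. Leaving out genes at the floor and the 3-fold rule lower the counts by construction, and for the other settings the cause was not tested. The share of rises that also rose from 1 to 3 h after 44 °C moved to 27.8% without scaling. That share for falls moved to 4.87% without scaling, 13.5% and 3.80% with the lower and higher floor, and 4.48% with the pseudocount. The share of rises also higher at 6 h than at 0 h after 42 °C was 24.8% with quantile and with signal-dependent normalisation, 44.4% without scaling, and 22.4% and 62.5% with the lower and higher floor. For falls it was 15.3%, 14.4%, 25.5%, 17.8% with the lower floor, 1.49% with the pseudocount and 3.45% at 3-fold. Without scaling the median of all genes off the floor was -0.47, and list medians moved with it: over the settings the medians ran from 0.09 to 0.58 for the HSP70 and HSP110 list, -0.08 to 0.41 for chaperonins and -0.31 to 0.18 for the unfolded protein response. No paired analysis was possible because each condition had 1 array. Signals near the floor limit what can be seen: 7031 genes lay at the floor on both arrays.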

Other observations

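Genes annotated as pseudogenes were counted apart, without a test. Between 1 and 3 h after 42 °C 22 of 493 pseudogenes fell (4.46%), against 249 of 16516 protein-coding genes (1.51%), and 2 rose. With quantile normalisation 16 fell (3.25%), against 0.902% of coding genes. Among genes off the floor on both arrays 15 of 155 pseudogenes fell (9.68%), 25 of 468 long noncoding RNA genes (5.34%) and 155 of 10257 coding genes (1.51%), with median signals of 45.9, 32.3 and 186. The brightest such falls, chosen after their values were seen, were NACA4P, with 797 at 3 h and 1984 at 1 h, and RPS16P5, with 359 at 3 h and 883 at 1 h. Probes for such genes may share sequence with their parent genes, so these values are uncertain. Of 13522 probe sets not assigned to 1 gene, 69 rose (0.510%) and 553 fell (4.09%), or 118 and 365 with quantile normalisation. The part that the dimness of these probe sets plays was not tested.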
